A study of Rattus norvegicus with 15 samples.

Results

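The phase II conjugation enzymes are the families that attach glutathione, glucuronic acid, sulfate or an acetyl group to drugs, toxins and the body's own metabolites. They were read here in rat kidneys after allogeneic and syngeneic transplantation. A gene was a member when its symbol began with Gsta, Gstm, Gstp, Gstt, Gsto, Gstk, Gstz or Mgst (glutathione transferases), Ugt1 or Ugt2 (glucuronosyltransferases), Sult (sulfotransferases), or Nat and a digit (N-acetyltransferases). Only probe sets annotated with a single symbol were taken, and each gene was read from its probe set with the highest mean log2 signal over all 15 kidneys. This gave 56 of the 14217 genes that have such probe sets, with 60 of the 31042 probe sets tested. There were 4 alpha class, 7 mu class and 9 other cytosolic glutathione transferases, 3 microsomal ones, 8 glucuronosyltransferases of the UGT2 family, 14 sulfotransferases and 11 N-acetyltransferases. The Nat symbols also take in genes that do not conjugate foreign compounds, such as Nat10, which acetylates RNA, and Nat8l, which makes N-acetylaspartate.

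Conjugation makes a compound more soluble in water, so that transporters can move it into urine or bile. In the kidney, proximal tubule cells hold most of this machinery. Glutathione conjugates are trimmed there to cysteine conjugates, which Nat8 then acetylates to the mercapturates that are excreted. Many glutathione transferase genes are known targets of the transcription factor NRF2, which responds to oxidative and electrophilic stress.

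The acute group (aTX) was 5 Lewis-Brown-Norway (LBN) kidneys placed in Lewis rats, a pairing that leads to acute rejection. The syngeneic group (sTX) was 5 LBN kidneys placed in LBN rats, as a control for surgery. The control group (ctr) was 5 native LBN kidneys, described as the other kidneys of the donors. Some ctr kidneys and grafts may therefore come from the same donor, and the labels do not say which. All rats were male and 10 to 12 weeks old, recipients had lost both of their own kidneys just before grafting, and grafts were taken on day 4. These strains follow the series description and the methods. The source names of the samples give other donor and recipient strains, and the treatment entry of sTX 4 and 5 reads allogeneic while their titles do not. Signals of leukocyte markers (Ptprc, Cd3e, Cd68 and 7 others) summed to 4406 to 5805 in the aTX kidneys, 582 to 911 in all 5 sTX kidneys and 351 to 455 in ctr, so sTX 4 and 5 lay with the other sTX kidneys.

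Values are MAS5 signals, the linear probe set intensities that the authors deposited, scaled to the same trimmed mean on every array. The median signal of an array was 26.2 to 27.2 in aTX, 28.8 to 30 in sTX and 24.3 to 26.8 in ctr. Changes are read within a probe set, between kidneys. Across probe sets, signals serve to choose the probe set of a gene, to sort genes by signal and to sum cell type markers. Differences in signal between probe sets are not read as differences in amount of RNA. The words rose and fell are used where limma gave an adjusted p below 0.05 after Benjamini-Hochberg adjustment over all 31042 probe sets. Arrays were washed in 2 fluidics runs, the first with the 5 ctr kidneys and aTX 2, 3 and 4, the second with the 5 sTX kidneys and aTX 1 and 5. No sTX array shared a run with a ctr array. The 3'/5' signal ratio of actin was 1.14 to 1.29 in aTX, 1.45 to 1.61 in sTX and 1.54 to 1.98 in ctr, and its part in the results was not tested.

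In aTX against ctr, 29 of the 56 members fell, 3 rose and 24 did not pass the test, so that 57.1% were called. Over all probe sets 42.4% were called in this comparison, 22.2% lower and 20.2% higher. In aTX against sTX, 29 members fell and 2 rose (55.4% called), beside 36.0% of all probe sets, of which 22.1% were lower and 13.9% higher. In sTX against ctr, 10 members fell and 3 rose (23.2% called), beside 17.7% of all probe sets, 6.32% lower and 11.4% higher. The sTX count depended on the settings: 2 members were called with the fluidics run as a block, 23 with arrays centred on their medians, and 6 in place of 10 fell without sTX 1. Without aTX 5, 6 members rose in aTX against ctr in place of 3, and 4 in aTX against sTX in place of 2. The median log2 fold change of the members was -0.79, -0.59 and -0.088 in aTX against ctr, aTX against sTX and sTX against ctr. The medians over all probe sets were -0.075, -0.18 and 0.088. Of the members, 27 were lower and 2 higher in aTX than in ctr with no overlap between the kidneys of the groups (16.9% and 16.4% of all probe sets), 27 were lower and 1 higher in aTX than in sTX (17.0% and 12.1%), and 7 were lower and 3 higher in sTX than in ctr (4.72% and 8.44%). Both grafts were set against the same ctr kidneys, and the comparisons share samples.

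Most of the falls, 22 of 29, were among the 24 members of higher signal. Signal here is the mean over all 15 kidneys, so a member that fell could pass 100 on its sTX and ctr signals alone. Sult2b1, Gstt2 and Nat8f5 passed although they averaged 49.0, 91.1 and 97.4 in aTX. The probe sets set beside the members passed the same filter. Of the 24 members whose signal averaged 100 or more, 22 fell in aTX against ctr (91.7%), where 40.4% of the 8623 probe sets at that signal fell and 34.7% rose (75.1% called). Their median log2 fold change was -1.21, beside -0.058 for those probe sets. The exceptions were Sult1a1, which rose, and Mgst1, which did not pass the test. In 22 of these 24 the group means ran in the same order, lowest in aTX, then sTX, then ctr. This counts every difference of means, also small ones, such as 3182 in sTX against 3199 in ctr for Mgst3. The share of probe sets in that order was not counted. The step from sTX to ctr cannot be told apart from the fluidics run. With the run as a block its log2 fold change was above 0 for Sult1c2a (0.36), Ugt2b35 (0.19) and Mgst1 (0.0073). The aTX and ctr kidneys did not overlap for 22 of the 24, all lower in aTX, where 34.7% of probe sets at that signal were lower and 29.7% higher without overlap. In aTX against sTX, 21 of the 24 fell and 1 rose, beside 38.6% lower and 28.3% higher (66.9% called) at that signal, and 21 were lower without overlap, beside 33.2% lower and 24.7% higher. In sTX against ctr, 10 of the 24 fell and 14 did not pass the test, beside 16.6% lower and 19.1% higher (35.6% called), and 7 were lower without overlap, beside 11.9% lower and 13.8% higher. Among the 32 members with a mean signal under 100, 7 fell (21.9%), 2 rose (6.25%) and 23 did not pass the test, beside 15.2% lower and 14.6% higher (29.8% called) of the 22419 probe sets at that signal. Of these members, 16 had a mean signal under 10, where the array gives little information.

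**Figure D1:**
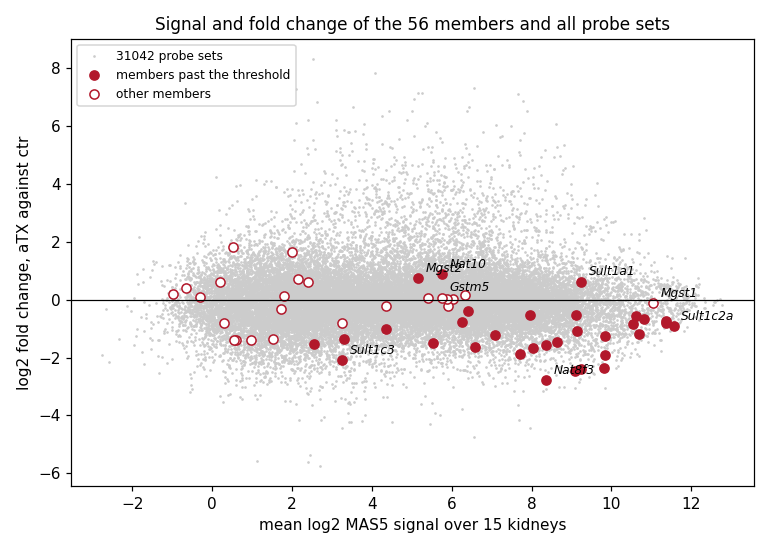
The log2 fold change of aTX against ctr (vertical axis) is plotted against the mean log2 MAS5 signal over 15 kidneys (horizontal axis) for all 31042 probe sets (grey) and the 56 members (red, filled where the adjusted p was below 0.05). The filled members lie below 0 at nearly every signal, apart from Sult1a1, Nat10 and Mgst2, and the open members lie mostly at low signals.

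By family, 5 of the 11 N-acetyltransferases, 6 of the 14 sulfotransferases, 2 of the 8 UGT2 genes, 3 of the 4 alpha class, 4 of the 7 mu class, 8 of the 9 other cytosolic and 1 of the 3 microsomal glutathione transferases fell in aTX against ctr, beside 22.2% of all probe sets. The 25.0% of UGT2 genes was near that share. In sTX against ctr, where 6.32% of all probe sets fell, the falls were 4 N-acetyltransferases, 1 of 14 sulfotransferases (Sult1c2, 7.14%, near that share), 1 alpha class (Gsta1) and 4 other cytosolic glutathione transferases (Gstk1, Gstt1, Gstt2 and Gstz1). The rises in sTX against ctr were those of Mgst2, Gstm5 and Sult5a1. In all, 9 members fell in each of the 3 comparisons, namely Nat8, Nat8f1, Nat8f3, Nat8f5, Sult1c2, Gsta1, Gstk1, Gstt2 and Gstz1. With the fluidics run as a block, only Gstk1 and Gstt2 of these kept the fall in sTX against ctr (limma adjusted p = 0.00838 and 0.00519). The others gave 0.0955 to 0.953. Another 17 fell in aTX against both sTX and ctr while sTX against ctr did not pass the test. Of these 17, Sult1c3, Ugt2b7 and Gsto2 lost the call in aTX against sTX with the run as a block (adjusted p = 0.0664, 0.0509 and 0.646). The shares of all probe sets with these joint patterns were not counted.

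**Figure D2:**
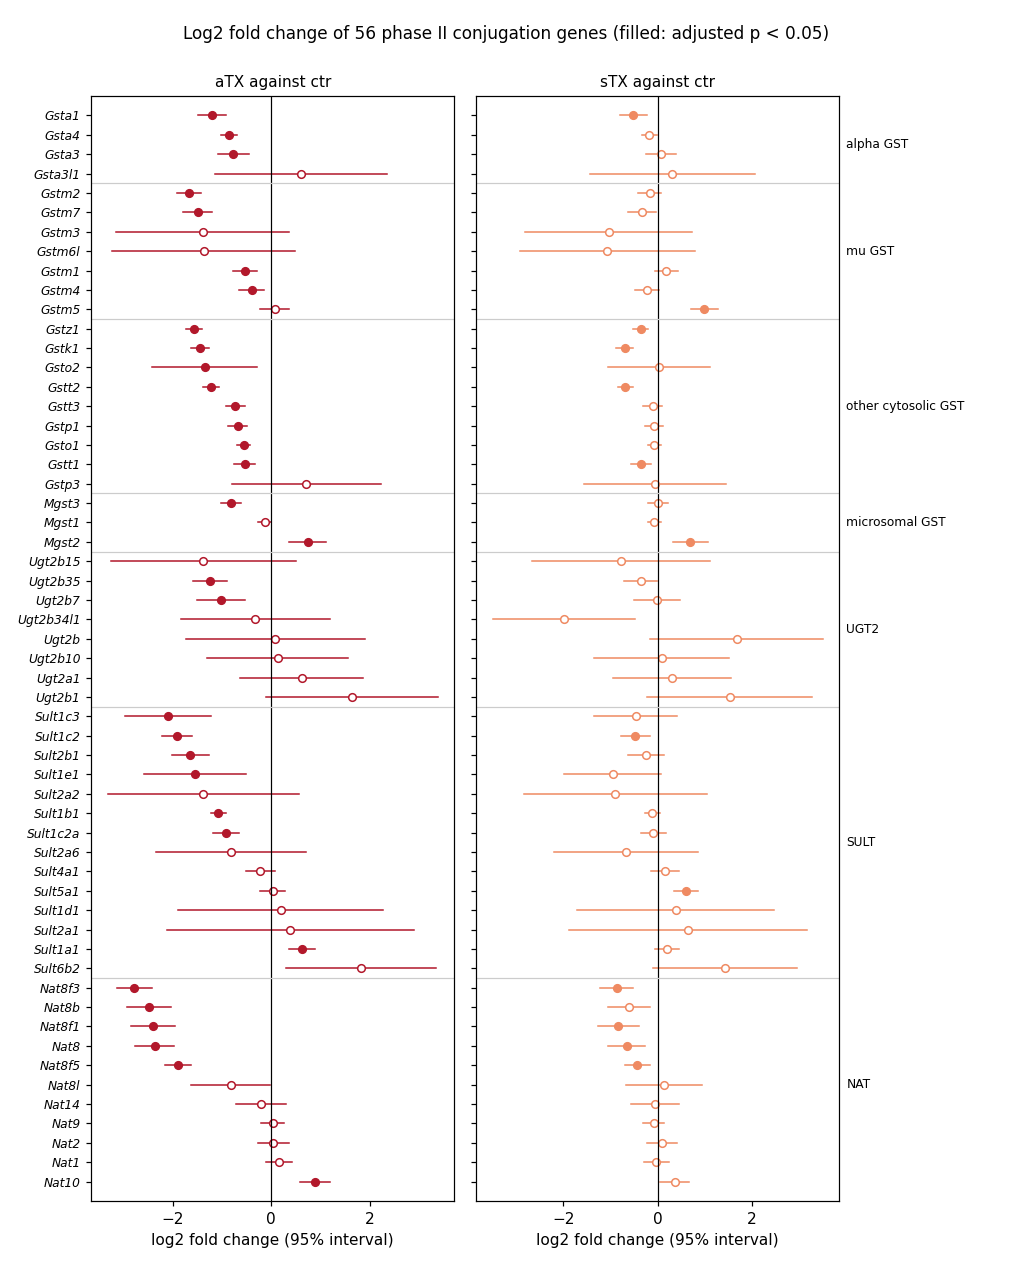
Log2 fold changes with 95% intervals from limma are shown for all 56 members by family, aTX against ctr on the left and sTX against ctr on the right, with filled points where the adjusted p was below 0.05. Nat8f3, Nat8b, Nat8f1 and Nat8 lie farthest to the left among the filled points of aTX against ctr, between -2.77 and -2.37, and wide intervals belong to members of low signal.

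The 4 largest falls in aTX against ctr were those of Nat8f3, Nat8b, Nat8f1 and Nat8, of the Nat8 group, the acetyltransferases that finish mercapturate synthesis or resemble the enzyme that does. Nat8f3, Nat8f5, Nat8, Nat8f1 and Nat8b follow one another along the rat genome, with at most 5 coding genes between neighbours, and all 5 fell in aTX against both sTX and ctr. Nat8f3 signals were 67.9, 129, 125, 161 and 101 in aTX, against 339, 461, 409, 445 and 466 in sTX and 760.1, 750.4, 607, 933 and 826 in ctr. Each aTX kidney lay below every sTX kidney, and each sTX kidney below every ctr kidney. Nat8f3 was 6.83-fold lower in aTX than in ctr (log2 fold change -2.77 ± 0.17 SE, limma adjusted p = 3.81e-11) and 3.75-fold lower than in sTX (adjusted p = 1.92e-08).

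Nat8 itself, the cysteine S-conjugate N-acetyltransferase, had signals of 212, 354, 333, 497 and 425 in aTX, against 891, 922, 1151, 1249 and 1663 in sTX and 1592, 1671, 1816, 1751 and 2256 in ctr. The aTX kidneys stood apart from both other groups, while sTX 5 reached into the ctr range. The fall was 5.15-fold in aTX against ctr (log2 fold change -2.37 ± 0.19 SE, adjusted p = 1.83e-09) and 3.27-fold in aTX against sTX (adjusted p = 3.57e-07). Nat8f1, a family member, had 118, 254, 251, 350.4 and 304 in aTX, against 599, 582, 677, 838 and 909 in sTX and 1015, 1156, 1329, 1497 and 1376 in ctr. Its 3 groups did not overlap, and the fall in aTX against ctr was 5.26-fold (adjusted p = 8.72e-09). Nat8b, another family member, had 97.9, 192, 202, 299.9 and 271 in aTX, against 595, 596, 692, 880.0 and 930.3 in sTX and 985, 1034, 1354, 1194 and 1007 in ctr. The fall in aTX against ctr was 5.57-fold (adjusted p = 8.12e-09), again with no overlap between groups. Nat8f5, named after its values were seen, averaged 97.4 ± 15.5 in aTX, 268 ± 43.3 in sTX and 358 ± 38.8 in ctr (SD, n = 5 each), a 3.71-fold fall in aTX against ctr (adjusted p = 1.38e-10).

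aTX 1 had the lowest signal of its group for all 5 genes of the cluster. Within the first fluidics run alone (3 aTX and 5 ctr kidneys) the log2 fold changes of aTX against ctr were -2.48 for Nat8f3, -2.22 for Nat8, -2.16 for Nat8f1, -2.29 for Nat8b and -1.78 for Nat8f5. The probe sets may share signal between near-identical copies, which was not tested, so the 5 genes are not 5 separate observations.

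**Figure D3:**
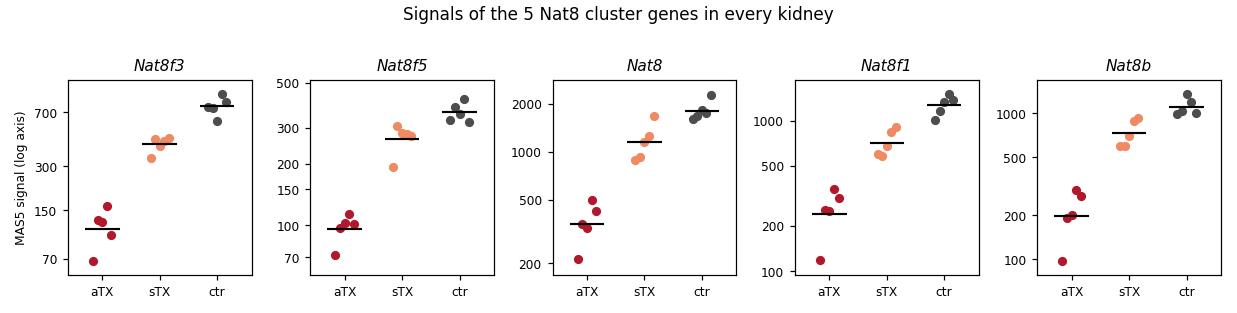
MAS5 signals (log axis) of the 5 genes of the Nat8 cluster are shown for every kidney, with aTX on the left, sTX in the middle and ctr on the right of each panel and a bar at the geometric mean. All aTX points lie below all sTX and ctr points in each panel.

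Against ctr, 4 of the 5 Nat8 genes also fell in sTX, by 1.82-fold for Nat8f3 (adjusted p = 0.000995), 1.78-fold for Nat8f1 (0.00828), 1.58-fold for Nat8 (0.0181) and 1.35-fold for Nat8f5 (0.0202), as adjusted p values from limma. Nat8b was 1.53-fold lower with an adjusted p of 0.0585. The call was lost for Nat8 without sTX 1, sTX 2 or ctr 5 (adjusted p = 0.0507 to 0.0572) and for Nat8f5 without sTX 1 (0.061) or ctr 4 (0.0583). These falls in sTX cannot be told apart from the fluidics run. The 3 aTX kidneys of the first run averaged 138 for Nat8f3 and the 2 of the second run 84.6, and for Nat8 the averages were 394 and 318. With the run as a block, which sets sTX against ctr through the aTX kidneys of both runs, the log2 fold change of Nat8f3 in sTX against ctr was -0.14 (adjusted p = 0.841) in place of -0.87, and that of Nat8 was -0.28 (adjusted p = 0.742) in place of -0.66.

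The other N-acetyltransferases did not move with the Nat8 group. Nat1 and Nat2, which acetylate arylamine and hydrazine drugs, did not pass the test in any comparison. Nat1 averaged 89.1 ± 16.5 in aTX, 77.2 ± 5.03 in sTX and 78.9 ± 9.10 in ctr (SD, n = 5 each), with a 95% interval of the log2 fold change in aTX against ctr of -0.10 to 0.42. Nat2 averaged 42.4 ± 1.47, 44.5 ± 10.6 and 41.4 ± 6.0 in aTX, sTX and ctr. Nat10, named after its values were seen, rose in aTX, with signals of 90.8, 69.1, 67.5, 67.5 and 85.6, against 50.1, 52.4, 47.2, 61.7 and 50.7 in sTX and 33.0, 47.2, 55.7, 35.0 and 37.2 in ctr. No aTX kidney overlapped the other groups, and the rise was 1.85-fold over ctr (adjusted p = 3.97e-05) and 1.45-fold over sTX (adjusted p = 0.00676).

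Among the sulfotransferases, which transfer sulfate from the donor PAPS, the 3 genes of the Sult1c cluster fell together in aTX. Sult1c2 had signals of 291, 442, 406, 594 and 430.4 in aTX, against 1157, 1116, 1177, 1171 and 1100.2 in sTX and 1610.0, 1873, 1110.0, 1892 and 1595 in ctr. The aTX kidneys did not overlap the others, and 1 ctr kidney lay within the sTX range. Sult1c2 was 3.76-fold lower in aTX than in ctr (log2 fold change -1.91 ± 0.15 SE, adjusted p = 1.40e-09), 2.71-fold lower in aTX than in sTX (adjusted p = 1.61e-07) and 1.39-fold lower in sTX than in ctr (adjusted p = 0.0312). The last call was lost without sTX 1, 2 or 5 or ctr 1, 2, 4 or 5 (adjusted p = 0.0527 to 0.0855), and with the fluidics run as a block it was 0.953. A second probe set that carries the symbols Sult1c2 and RGD1562392 averaged 226 ± 62.6 in aTX, 764 ± 75.3 in sTX and 1088 ± 241 in ctr (SD, n = 5 each).

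Sult1c2a, a paralogue, had 1546, 2296, 2199, 2388 and 1809 in aTX, against 3529, 4231, 3192, 3401 and 3573 in sTX and 3778, 3490.1, 3161, 4726 and 4032 in ctr. The sTX and ctr kidneys overlapped, and the aTX kidneys were 1.88-fold lower than ctr (adjusted p = 3.18e-06). Sult1c3, named after its values were seen, had 3.7, 6.9, 6.3, 1.2 and 5.7 in aTX, against 13.0, 14.3, 15.9, 8.1 and 12.9 in sTX and 16, 14.5, 19.3, 15.2 and 22.5 in ctr, near the low end of the scale (adjusted p = 0.00034 in aTX against ctr). The other falls in aTX against ctr were Sult2b1, which sulfates cholesterol and pregnenolone, at 3.11-fold, Sult1b1, which acts on thyroid hormones, at 2.10-fold, and Sult1e1, the estrogen sulfotransferase. Sult1e1 lay at the low end of the scale, at 3.96 ± 2.07 in aTX, 6.28 ± 3.37 in sTX and 11.1 ± 4.57 in ctr (adjusted p = 0.0148 in aTX against ctr), and its call was lost with the run as a block (0.0848) and within the first run (0.0641).

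Sult1a1, the phenol sulfotransferase, went the other way. Its signals were 888, 758, 839.6, 664 and 751 in aTX, against 632, 465, 488, 648 and 678 in sTX and 525, 437, 678, 441 and 470.5 in ctr. All but 1 aTX kidney lay above every sTX and ctr kidney. The rise was 1.54-fold over ctr (log2 fold change 0.62 ± 0.12 SE, adjusted p = 0.000316) and 1.35-fold over sTX (adjusted p = 0.0093), and sTX against ctr gave 1.14-fold (adjusted p = 0.338).

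The alpha class glutathione transferases, which also reduce lipid peroxides, fell in 3 of 4 genes in aTX against ctr. Gsta1 signals were 998, 1088, 1038, 1182 and 1033 in aTX, against 1409.8, 1565, 1451, 1976 and 2326 in sTX and 2442, 2309, 1794, 3005 and 2878 in ctr. The 5 aTX kidneys lay close together below the others, while sTX and ctr overlapped. The fold was 2.29 in aTX against ctr (adjusted p = 3.83e-07), 1.61 in aTX against sTX (adjusted p = 0.000458) and 1.43 in sTX against ctr (adjusted p = 0.0122, and 0.478 with the run as a block), each time lower in the graft named first. Gsta4, which clears the lipid aldehyde 4-hydroxynonenal, had 1042, 1029.6, 928, 1130.4 and 1097 in aTX, against 1574, 1557, 1539, 1731 and 1942 in sTX and 1784, 1842, 1748, 2099 and 1949.6 in ctr. It was 1.80-fold lower in aTX than in ctr (adjusted p = 1.87e-08), with no overlap, and sTX against ctr did not pass the test (adjusted p = 0.133). A probe set shared by Gsta5 and Gsta2, outside the members, averaged 1400.1 ± 339 in aTX, 2918 ± 204 in sTX and 3613 ± 251 in ctr.

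The mu class fell less evenly. Gstm2 had signals of 146, 117, 111, 129 and 129.6 in aTX, against 371, 293, 322, 360.4 and 458 in sTX and 490.5, 382, 450.1, 326 and 381 in ctr, a 3.19-fold fall against ctr (adjusted p = 3.32e-10) and 2.83-fold against sTX (adjusted p = 3.61e-09). Its sTX and ctr kidneys overlapped (adjusted p = 0.375). Gstm1 had 226, 135, 218, 191 and 187 in aTX, against 296, 296, 314, 298 and 334 in sTX and 247, 256, 345, 274 and 247 in ctr. Its fall was smaller, 1.44-fold against ctr (adjusted p = 0.000909), and the sTX mean lay above the ctr mean without passing the test. Gstm7, named after its values were seen, fell 2.81-fold in aTX against ctr (adjusted p = 3.04e-08), with means of 25.6 ± 4.94 in aTX, 56.5 ± 6.53 in sTX and 71.2 ± 8.93 in ctr (SD, n = 5 each).

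Gstm5, singled out after its values were seen, was high in the sTX kidneys. Its signals were 62.8, 35.2, 45.5, 42.0 and 42.8 in aTX, against 91.5, 94.8, 83.8, 81.8 and 71.7 in sTX and 41.7, 40.7, 44.2, 38.0 and 49.2 in ctr. Every sTX kidney lay above every other kidney, and aTX and ctr overlapped. It was 1.98-fold higher in sTX than in ctr (adjusted p = 3.74e-05) and 1.88-fold lower in aTX than in sTX (adjusted p = 2.16e-05), and with the run as a block the log2 fold change in sTX against ctr was 0.63 (adjusted p = 0.161) in place of 0.99. Sult5a1, a sulfotransferase without an established substrate, showed the same order at a mean of 52.3 ± 6.99 in aTX, 76.9 ± 3.75 in sTX and 51.4 ± 8.05 in ctr (adjusted p = 0.00191 in sTX against ctr, and 0.0931 with the run as a block).

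In the other cytosolic classes 8 of 9 genes fell in aTX against ctr. Gstk1, the enzyme of mitochondria and peroxisomes, had signals of 284, 252, 234, 224 and 218 in aTX, against 343, 382, 407, 471 and 432 in sTX and 632, 625, 738, 671 and 627 in ctr. The 3 groups did not overlap, in the order aTX, sTX, ctr. It was 2.73-fold lower in aTX than in ctr (adjusted p = 3.56e-11), 1.68-fold lower in aTX than in sTX (adjusted p = 8.78e-07) and 1.62-fold lower in sTX than in ctr (adjusted p = 9.75e-06). Gstt2, a theta class enzyme, had 85.5, 87.6, 86.2, 97.7 and 98.5 in aTX, against 129, 119, 129.8, 138 and 144 in sTX and 219.5, 203, 199, 211 and 226 in ctr, also without overlap. The folds were 2.33 in aTX against ctr (adjusted p = 4.58e-11) and 1.61 in sTX against ctr (adjusted p = 2.06e-06), both lower in the graft.

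Gstk1 and Gstt2 were the only 2 members whose fall in sTX against ctr passed the test with the fluidics run as a block, at log2 fold changes of -0.77 (adjusted p = 0.00838) and -0.71 (adjusted p = 0.00519). The other Gstt2 probe set, at lower signals of 21.5 ± 2.69 in aTX, 17.6 ± 9.54 in sTX and 29.4 ± 6.77 in ctr, did not pass the test in any comparison. Gstz1, which isomerises maleylacetoacetate in tyrosine breakdown and was named after its values were seen, had the smallest adjusted p of all members in aTX against ctr (1.38e-12), with 173 ± 10.7 in aTX, 397 ± 41.8 in sTX and 510.3 ± 32.1 in ctr (SD, n = 5 each).

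Gstt3 and Gstp1 fell in aTX while sTX and ctr overlapped. Gstt3, of the theta class, had 1952, 1879, 1960.4, 2039.6 and 1873 in aTX, against 2882, 2845, 2607, 3015 and 3644 in sTX and 3059, 2958, 2789.6, 3666 and 3687 in ctr, a 1.66-fold fall against ctr (adjusted p = 1.85e-06). Gstp1, the pi class enzyme, had 1443, 1428, 1388, 1159.9 and 1317 in aTX, against 1955, 1802, 1860.4, 2106 and 2506 in sTX and 1852, 2166, 2117, 2474 and 2175 in ctr, a 1.60-fold fall against ctr (adjusted p = 5.03e-06). For both, every aTX kidney lay below every other kidney. Gstt1, named after its values were seen, fell 1.45-fold in aTX (adjusted p = 0.000209) and 1.28-fold in sTX (adjusted p = 0.0206) against ctr, and aTX against sTX did not pass the test (adjusted p = 0.189). Without sTX 1, 2 or 3 or ctr 4 the fall in sTX was not called (adjusted p = 0.0517 to 0.0663).

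The microsomal transferases, membrane enzymes of another protein family, split 3 ways. Mgst3 had 1746, 1869, 1783, 2040.2 and 1582 in aTX, against 3140.0, 3364, 2977, 3213 and 3219 in sTX and 3169, 3140.3, 2422, 3565 and 3698 in ctr, a 1.76-fold fall against ctr (adjusted p = 7.63e-07) with no aTX kidney in the range of the others. Mgst1 had 2021, 2147, 2058, 2029.6 and 1903 in aTX, against 1968, 2076, 2017, 2156 and 2347 in sTX and 2152, 2124, 2194, 2346 and 2306 in ctr. The groups overlapped in each comparison, and the 95% interval of the log2 fold change in aTX against ctr was -0.27 to 0.01. With each array centred on its median in place of the trimmed mean, Mgst1 was lower in aTX than in ctr at -0.21 (adjusted p = 0.0259). It was then also lower in sTX than in ctr at -0.27 (adjusted p = 0.0096), and aTX against sTX gave 0.065 (adjusted p = 0.547). Mgst2, which also makes leukotriene C4 and was singled out after its values were seen, had 58.7, 48.3, 40.2, 33.6 and 39.2 in aTX, against 45.5, 35.2, 34.8, 47.2 and 48.2 in sTX and 28.1, 19.3, 33.3, 26.3 and 24.2 in ctr. It rose in both grafts against ctr, 1.67-fold in aTX (adjusted p = 0.00197) and 1.62-fold in sTX (adjusted p = 0.00994, and 0.562 with the run as a block).

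**Figure D4:**
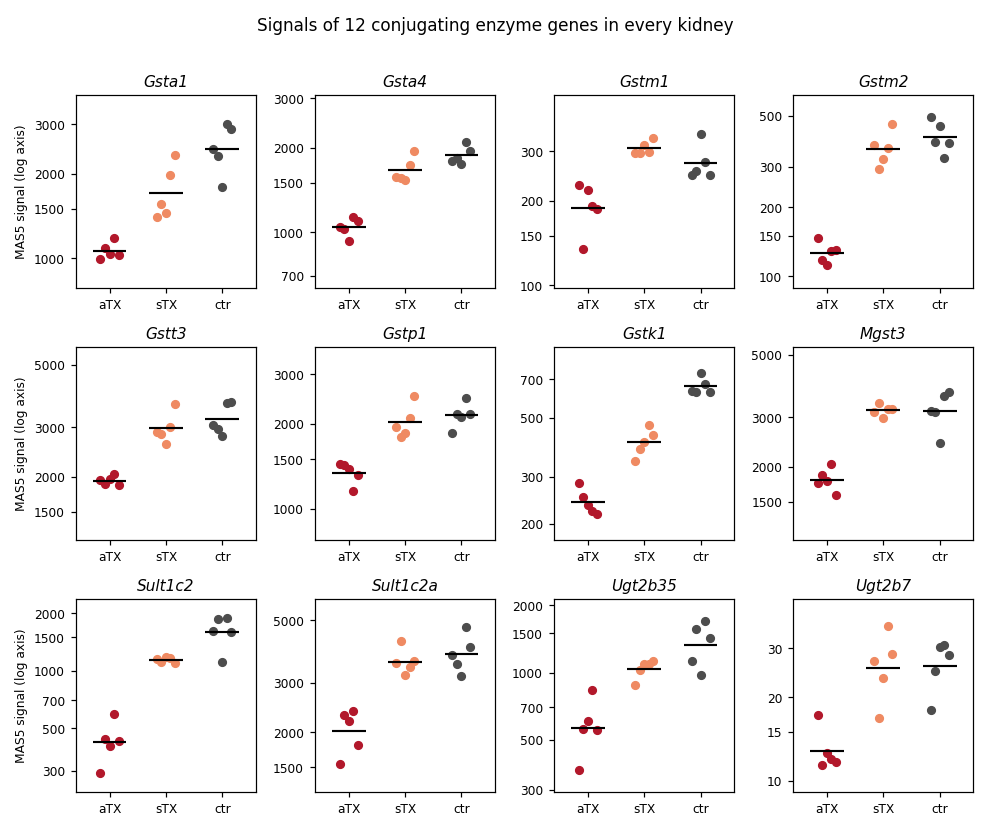
MAS5 signals (log axis) of 12 glutathione transferase, sulfotransferase and glucuronosyltransferase genes are shown for every kidney, aTX on the left, sTX in the middle and ctr on the right, with a bar at the geometric mean. The aTX points lie below the sTX and ctr points in every panel except that of Ugt2b7, where aTX 1 at 17.3 lies above the lowest sTX kidney at 16.8.

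**Figure D5:**
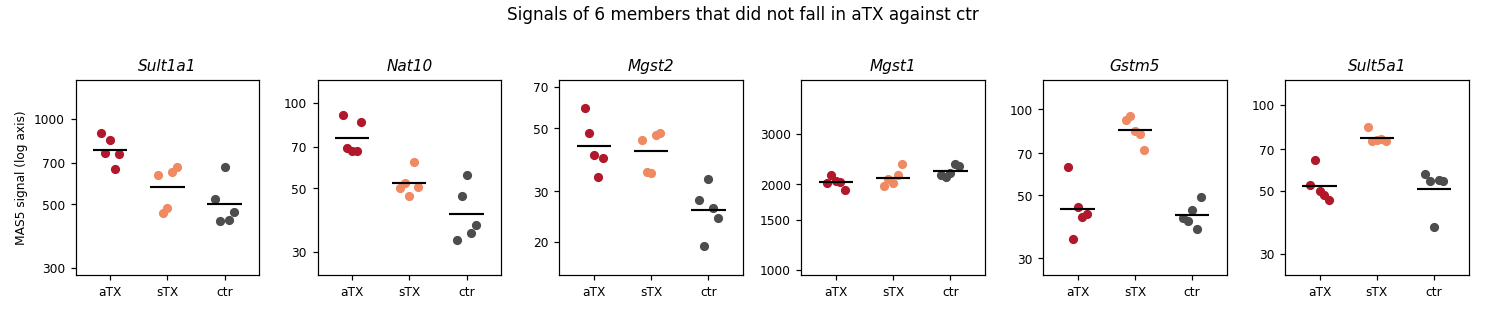
MAS5 signals (log axis) of 6 members that did not fall in aTX against ctr are shown for every kidney, aTX on the left, sTX in the middle and ctr on the right, with a bar at the geometric mean. Sult1a1 and Nat10 are highest in aTX, Mgst2 is higher in both grafts than in ctr, Mgst1 overlaps across the groups, and Gstm5 and Sult5a1 are highest in sTX.

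Among the UGT2 genes, which glucuronidate steroids, bile acids and drugs, 2 of 8 fell and the other 6 had mean signals under 10 in every group. Ugt2b35 had 366, 557, 609, 838 and 554 in aTX, against 883, 1024, 1091, 1092 and 1131 in sTX and 1129.7, 1569.8, 977, 1705 and 1433 in ctr. No aTX kidney reached the range of the others, and the fall was 2.36-fold against ctr (adjusted p = 3.84e-06) and 1.84-fold against sTX (adjusted p = 0.000293). Ugt2b7, at low signal, had 17.3, 11.4, 12.6, 12.0 and 11.7 in aTX, against 27.0, 16.8, 23.4, 36.1 and 28.6 in sTX and 18.0, 24.8, 30.4, 30.9 and 28.4 in ctr (2.03-fold lower in aTX than in ctr, adjusted p = 0.00119). No UGT1 gene is a member, because both probe sets of that locus carry the symbols of several genes that share exons. They averaged 1293 ± 75.5 and 899.7 ± 67.4 in aTX, 1917 ± 185 and 1347 ± 139 in sTX and 2107 ± 224 and 1497 ± 151 in ctr, and both fell in aTX against ctr and against sTX.

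Gene order was read from the RefSeq annotation of the rat assembly GRCr8, in which 55 members were located. Of these, 40 lay in 10 clusters of neighbouring members. All members of 4 clusters fell in aTX against ctr, namely the 5 Nat8 genes, the 3 Sult1c genes, Gstt1 to Gstt3, and Gsto1 with Gsto2. Of single probe sets 22.2% fell, and 40.4% of those with a mean signal of at least 100. How often neighbouring genes of other kinds all fell was not counted. The call for Gsto2 was lost without any 1 of 6 arrays (adjusted p = 0.0548 to 0.126). In the mu class cluster 4 of 7 genes fell. In the cluster of Ugt2 genes with Sult1b1 and Sult1d1 3 of 10 fell, near the share of all probe sets. In the Sult2a cluster (3 genes) and the pair of Nat1 and Nat2 no member passed the test.

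Promoter sequence was available for 46 members, as the 250 bases before the start site in RefSeq (GRCr8). The core of the antioxidant response element, TGACNNNGC, to which NRF2 binds, was searched on both strands. It stood in 6 of 46 member promoters (13.0%) and in 10.2% of 27457 promoters of all genes. Of the 26 members with a promoter that fell in aTX against ctr 5 held it, and of the 20 that did not fall 1, Gstm5, held it at 2 places. The windows are printed because they cover both the falling members and Gstm5, which was highest in sTX, and capitals mark the motif. A match is only a run of letters and not a shown binding site.
Gsta3, chr9:31154952-31154988, plus strand: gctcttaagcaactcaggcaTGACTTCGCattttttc
Gstm7, chr2:198260320-198260353, minus strand: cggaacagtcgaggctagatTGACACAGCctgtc
Gstp1, chr1:210769738-210769786, minus strand: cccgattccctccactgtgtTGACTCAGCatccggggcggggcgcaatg
Gstz1, chr6:112525356-112525403, plus strand, motif on the opposite strand: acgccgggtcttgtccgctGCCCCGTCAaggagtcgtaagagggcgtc
Nat8, chr4:119837960-119838008, minus strand: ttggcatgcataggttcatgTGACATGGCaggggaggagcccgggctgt
Gstm5, first site, chr2:198219636-198219684, plus strand: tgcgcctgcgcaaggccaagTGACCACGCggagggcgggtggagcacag
Gstm5, second site, chr2:198219696-198219744, plus strand: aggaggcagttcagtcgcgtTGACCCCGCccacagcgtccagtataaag
The motif ended 8 bases before the start site in Gsta3, 5 in Gstm7, 52 in Gstp1, 222 in Gstz1 and 215 in Nat8, and 104 and 44 in Gstm5. The core of the xenobiotic response element, GCGTG, stood in 23.9% of member promoters and 27.1% of all promoters, and the HNF1 core GTTAAT in 6.52% of both.

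Genes that supply the conjugation reactions or act on or near their products were read from the same fit. In aTX against ctr, 22.2% of all probe sets fell and 20.2% rose. At a mean signal of at least 100, 40.4% of probe sets fell and 34.7% rose. All 6 genes listed with the mercapturate pathway (Ggt1, Dpep1, Anpep, Acy1, Acy3 and Aspa) fell in aTX against ctr and against sTX. Not all of them act on conjugates. Ggt1, the brush border enzyme that opens glutathione conjugates, averaged 2156 ± 116 in aTX, 3216 ± 376 in sTX and 3463 ± 259 in ctr (adjusted p = 1.04e-06 in aTX against ctr). Of 11 genes of glutathione supply and the NRF2 response, 5 fell and 4 rose in aTX against ctr, near the shares at a mean signal of at least 100. The glutathione synthesis genes fell, with Gss at 609.8 ± 135 in aTX, 1180 ± 172 in sTX and 1716 ± 360 in ctr (adjusted p = 3.43e-08) and Gclc at 2368 ± 496, 4121 ± 492 and 4952 ± 484 in the same groups. Hmox1, which degrades heme, rose in aTX to 775 ± 159, against 96.1 ± 24.5 in sTX and 33.7 ± 3.90 in ctr (adjusted p = 3.69e-14). Gpx2, Srxn1 and Nqo1 also rose in aTX against ctr. Gpx2 and Srxn1 rose in sTX against ctr too (adjusted p = 1.71e-06 and 2.24e-06), while Nqo1 did not pass the test there (0.331). In aTX against sTX, Gpx2, Srxn1 and Nqo1 did not pass the test (adjusted p = 0.593, 0.904 and 0.122). Gpx2 averaged 485 in aTX, 448 in sTX and 164 in ctr, and Srxn1 averaged 133, 135 and 68.2. Osgin1, an oxidative stress response gene, fell in aTX against ctr (log2 fold change -2.19). Nfe2l2, which encodes NRF2, averaged 874 ± 68.1 in aTX, 692 ± 65.6 in sTX and 610.3 ± 85.8 in ctr (adjusted p = 7.46e-05 in aTX against ctr).

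Of 8 genes of sulfate supply and removal, 5 fell and 1 rose in aTX against ctr, among them both PAPS synthases, Papss1 and Papss2, which were lower. Of 4 genes of glucuronic acid supply and removal, Ugp2 and Ugdh fell and Gusb, the glucuronidase that splits glucuronides, rose 2.42-fold. A further list held 4 transferases (Tpmt, Hnmt, Glyat and Nnmt) and 4 enzymes of neighbouring steps that do not conjugate (the acyl-CoA synthetases Acsm3 and Acsm5 and the epoxide hydrolases Ephx1 and Ephx2). All but Nnmt fell in aTX against ctr, and the largest fall among them was that of Hnmt, the histamine N-methyltransferase, at 203 ± 51.9 in aTX, 735 ± 137 in sTX and 1424 ± 93.8 in ctr (adjusted p = 1.10e-11). Nnmt, the nicotinamide N-methyltransferase, rose in aTX against ctr, at 71.0 ± 12.0 in aTX, 33.0 ± 14.6 in sTX and 18.3 ± 8.82 in ctr (adjusted p = 0.000193). Among 6 efflux pumps for conjugates, Abcg2 and Abcc4 fell, near the shares of probe sets given above, and the other 4 did not pass the test. Of 9 regulators, Nfe2l2, Keap1 and Arnt rose and Hnf4a, Nr1i2 and Ppara fell, both near the shares of probe sets given above. Ahr, Nr1i3 and Nr3c1 did not pass the test. Hnf4a, a factor of hepatocyte and proximal tubule genes, averaged 884 ± 85.3 in aTX, 1554 ± 170 in sTX and 2006 ± 177 in ctr.

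Markers of cell types were read from the same fit. In aTX against ctr, 22.2% of all probe sets fell and 20.2% rose, and 40.4% and 34.7% at a mean signal of at least 100. All 9 proximal tubule markers (among them Slc34a1, Slc22a6, Lrp2 and Aqp1) fell in aTX against ctr, with a median log2 fold change of -1.16, and 4 of 9 fell in sTX. Their summed signal was 6697 to 8732 in aTX, 14235 to 16677 in sTX and 15976 to 21393 in ctr. Markers of other resident cells fell in aTX too, 2 of 2 for the thick ascending limb, 4 of 5 for the distal nephron and collecting duct, 2 of 2 for podocytes and 2 of 2 for endothelium, while 9 of 10 leukocyte markers rose. In sTX against ctr, 3 of the 5 distal nephron and collecting duct markers rose and 1 fell. In that comparison 6.32% of all probe sets fell and 11.4% rose, and 16.6% and 19.1% at a mean signal of at least 100. Marker changes in sTX against ctr cannot be told apart from the fluidics run. Of 4 genes listed as hepatocyte markers, 1 fell in aTX against ctr and 3 did not pass the test. In sTX against ctr 1 rose and 1 fell. The gene that fell in aTX was Cyp2c11, at a mean of 69.1 in aTX, 169.8 in sTX and 1088 in ctr. Alb was near the low end of the scale at 6.86 ± 2.56 in aTX, 6.98 ± 1.63 in sTX and 10.3 ± 5.95 in ctr. The fall of Cyp2c11 is therefore not read as a change in hepatocytes. In these bulk samples fewer cells of a type and less RNA per cell cannot be told apart, and the part of cell makeup in the falls was not tested.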

How the data were processed

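Total RNA of 15 kidneys (5 per group) was hybridized to 1 Affymetrix rat genome array each. The authors deposited 1 linear intensity per probe set, the MAS5 signal, condensed from the probes and scaled to a common mean. The deposited instrument records, used as other data, gave the fluidics run. No columns other than those of the 15 arrays were used. Of 31099 probe sets, 57 Affymetrix controls were left out. Of the rest, 20826 carry 1 symbol, 436 several and 9780 none. Before log2, the 54 zero signals (36 probe sets) were replaced by 0.05.

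Groups were compared with limma 3.58.1 in R 4.3.3 (lmFit, then eBayes with a trend on mean signal) over all 15 arrays in 1 fit, and p values were adjusted by Benjamini-Hochberg. Levels are means ± SD, folds are ratios of geometric means. The replicates are separate kidneys. Their number limits the precision. The members and gene lists were chosen with earlier results of these data known. Values in every kidney are given for the 5 largest rises and falls per comparison among called members whose higher group had a geometric mean of 100 or more, for the 2 members of highest signal per family. Values in every kidney or group means are given for members named after their values were seen (Mgst2, Nat10, Gstm5, Sult5a1, Nat8f5, Gstz1, Sult1c3, Gstm7 and Gstt1). Genes of the related lists were named by their place in the pathways after their values were seen. The fit was tested on simulated data. Plots used Python 3.11.15 with pandas 2.3.3 and matplotlib 3.10.9. Other scalings, an offset, a filter, other tests, blocks and left-out arrays were tried.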

Additional observations from a re-analysis of the deposited data

Results flagged for a closer look

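Single kidneys stood apart from their group for 4 of the 28 named genes. For Gstz1, ctr 1 was the highest of its group at 566.9. For Nat8f5, sTX 1 was the lowest at 193.1. For Sult5a1, sTX 1 was the highest at 83.5 and ctr 3 the lowest at 37.2. For Ugt2b7, aTX 1 was the highest at 17.3. Of 84 groups of 5 kidneys examined 5 were noted this way, and the nominal chance rate of the outlier test used (Dixon's) is about 1 in 20.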

How the results depend on the processing

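In aTX against ctr 29 members fell, against 23 to 30 under the other settings run, and in aTX against sTX 29 fell, against 23 to 30. Counts of rises were small and less firm: in aTX against ctr 3, against 1 by the methods' t-test at an unadjusted p below 0.001 and 6 within the first fluidics run (3 to 6 with single arrays left out, 6 without aTX 5), and in aTX against sTX 2, against 0 by that t-test (2 to 4 with single arrays left out, 4 without aTX 5).

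The comparison of sTX with ctr depended most on the setting. Against 13 called members (10 lower), median centring gave 23 (21 lower), the t-test at an unadjusted p below 0.001 gave 6 (4 lower), the t-test with adjusted p gave 6 lower, no intensity trend gave 6 lower, and the fluidics run as a block gave 2, with 0 higher and 2 lower. Without sTX 1 the lower count was 6, and 6 to 11 over all single arrays left out. Median centring moved the median of all probe sets in sTX against ctr to -0.11, against 0.088.

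Signs turned for members that had not passed the test in that comparison, and for Gstt2, which had. In aTX against ctr, Sult5a1 was -0.044 and -0.091 (median centring, quantile) and -0.082 to 0.074 with single arrays left out, and Gstm5 was -0.0014 and -0.047, -0.067 with the run as a block or within it, and -0.048 to 0.16. In sTX against ctr, the run as a block gave Nat10 -0.018, Sult1c2a 0.36, Ugt2b35 0.19, Mgst1 0.0073 and Gstm1 -0.032; median centring gave Sult1a1 -0.0017, Mgst3 -0.19 and Gstm1 -0.016; single arrays left out gave Ugt2b7 -0.16 to 0.13 and Mgst3 -0.090 to 0.063, and without sTX 4 and 5 Mgst3 was -0.0042. In aTX against sTX, median centring gave Mgst1 0.065, leaving out sTX 4 and 5 gave Mgst1 0.0075 and Gstt1 0.018, single arrays left out gave Mgst2 -0.062 to 0.14, and the other Gstt2 probe set gave 0.59 (adjusted p = 0.293) in place of -0.54. The cause was not tested.

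Single arrays cost calls only for Gsto2 (aTX against ctr without aTX 3 or 4 or ctr 1, 3, 4 or 5, adjusted p = 0.0548 to 0.126, and aTX against sTX without aTX 3 or 4 or sTX 1 to 4, 0.0602 to 0.127), Sult4a1 (aTX against sTX without any array of these groups but aTX 4 and sTX 3, 0.0514 to 0.115) and Nat8, Nat8f5, Sult1c2 and Gstt1 (sTX against ctr), and no fold moved over 1.5 times. Of 15 pairs with the same number 0 correlated above 0.1 (-0.019 to 0.027), and with the replicate block 32, 14 and 30 members were called in aTX against ctr, sTX against ctr and aTX against sTX.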
